A study of Gallus gallus with 6 samples.

Results

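The genes described here are 9 of the 2253 named genes read on chicken cDNA arrays: the lysosomal proteases CTSB, CTSD, CTSS, CTSV and LGMN, the hydrolase cofactors and carriers PSAP and NPC2, the acid phosphatase ACP2 and the lysosomal membrane protein LAPTM5. They were chosen with earlier results of these data known and taken by gene symbol from the probe annotation. All 9 were read on all 6 arrays, through 18 clones and 54 spots. The RNA came from chicken macrophages that the labels describe as peripheral blood lymphocyte macrophages, with no strain, age, number of birds or way of culture stated. Cells were left unstimulated or were exposed to whole E. coli of the laboratory strain XL10, or to LPS from S. typh. LPS, or lipopolysaccharide, coats the outer membrane of Gram-negative bacteria. On 5 arrays a pair of RNA samples was compared. The 1 h E. coli array set bacteria for 1 h beside no stimulus, and the 1 h LPS array set no stimulus beside LPS for 1 h. The E. coli time array paired the E. coli 2 h sample with the E. coli 4 h sample. The 4 h array and the 8 h array each paired bacteria with LPS at that time. The remaining array gave the brightness of LPS 2 h alone. For the later times the stimulus was taken off after 2 h.

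Lysosomes are acidic organelles in which macrophages break down what they take up. Cathepsins are their proteases: CTSB, CTSS and CTSV cut with a cysteine and CTSD with an aspartate in the active site, while LGMN, or legumain, cuts after asparagine and helps to mature other cathepsins. Lipid breakdown needs non-enzyme partners, among them the saposins cut from PSAP, which present sphingolipids to their hydrolases, and NPC2, which carries cholesterol out of the organelle. In antigen-presenting cells of mammals, the same proteases also cut proteins into peptides for MHC class II molecules.

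Each comparison was made on 1 array, so there was no replicate and no test between groups. Values are log2 ratios with the array's median subtracted, and ± gives the SD among a gene's spots on 1 array, which is technical spread only. Past 2-fold means a centred ratio of at least 1 in size. Neither the numerator of the ratios nor the dyes were stated, so signs are as deposited and the direction is unsettled. By the labels, channel 1 held the sample named first above on each ratio array, although the title of the 1 h E. coli array names the control first. Were ratios channel 1 over channel 2, a negative value on the 4 h and 8 h arrays would stand for less RNA with E. coli than with LPS. For reference, the inflammatory cytokine gene IL1B had 3.38 ± 1.60 over 6 spots on the 1 h E. coli array and -5.10 ± 1.57 on the 1 h LPS array, where the unstimulated RNA was in the other channel.

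Between 13310 and 14361 of the 14718 spots had a value on a ratio array, and spots of 1 clone had a typical (median) SD of 0.21 for the 1 h E. coli array, 0.20 for the 1 h LPS array and 0.45 to 0.60 later. The 3 spots of a clone lie in separate printed copies of the clone set, and ratios were lower in the first copy than in the last, with medians of -0.35 and 0.39 at 8 h and of -0.08 and 0.09 for 1 h of E. coli. Bright spots also had lower ratios, where brightness is the intensity on the LPS 2 h array. That sample was itself stimulated, so genes with much RNA after LPS count as bright. Brightness is thus not separate from the stimuli. Of the brightest 25% of genes, 7.09% were past 2-fold positive and 0.53% negative on the 1 h E. coli array. On the 1 h LPS array these shares were 0.53% and 15.6%. The brightest 25% of genes had a median of -0.41 on the 4 h array, and 8 of the 9 lysosomal genes belong to them, so that results are also given after removal of this trend where it ends a call.

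The 9 genes had small ratios at 1 h, mostly of 1 sign on an array, and large ones between the stimuli at 4 h and 8 h. With E. coli for 1 h all 9 were negative, with a median of -0.54 against -0.0065 over all genes and -0.20 over the brightest 25%. Only CTSS was past 2-fold there, among 16.3% of all genes (1.51% on the negative side). For 1 h of LPS 7 of 9 were positive and none was past 2-fold (11.2% of all genes, 3.78% positive and 7.37% negative), with a median of 0.25 against 0.05 over all genes. By the labels the unstimulated RNA was in opposite channels on the arrays of 1 h. If both ratios were formed alike, opposite signs there stand, for any gene, for the same direction relative to unstimulated cells. Between 2 h and 4 h of E. coli 6 of 9 were positive and none was past 2-fold (23.1% of all genes, 14.8% positive and 8.30% negative), with a median of 0.48 against 0.04. At 4 h all 9 were negative and 6 were past 2-fold, with a median of -1.84, where 29.4% of all genes and 31.2% of the brightest 25% were past 2-fold. The share on the negative side was 11.7% of all genes and 23.6% of the brightest. At 8 h 5 were past 2-fold negative and 1 positive, with a median of -1.04, where 27.9% of all genes were past 2-fold, 12.9% negative and 15.0% positive, and 17.1% and 6.57% of the brightest.

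Removal of the brightness trend moved the medians to -0.34 on the 1 h E. coli array, 0.40 on the 1 h LPS array, 0.87 on the E. coli time array, -1.19 at 4 h and -0.67 at 8 h. Not all 9 genes remained negative at 4 h, where CTSV stood at 0.06 and NPC2 at 0.35 after removal. NPC2 also turned positive at 8 h, at 0.09. The count past 2-fold was again 6 on the 4 h array, where 21.6% of all genes were past 2-fold after removal, with CTSB at -1.19, CTSD at -1.55, LGMN at -1.28 and LAPTM5 at -1.10 besides CTSS and PSAP, and at 8 h it was 4 negative and 1 positive, where the share of all genes was 25.4%. On the E. coli time array 2 of the 9, CTSD and NPC2, were past 2-fold after removal, near the 20.0% of all genes. E. coli 4 h was a condition of both the E. coli time array and the 4 h array, and unstimulated cells of both arrays of 1 h. The labels do not say whether the same RNA was used, so their values are set side by side and not as separate support.

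**Figure D1:**
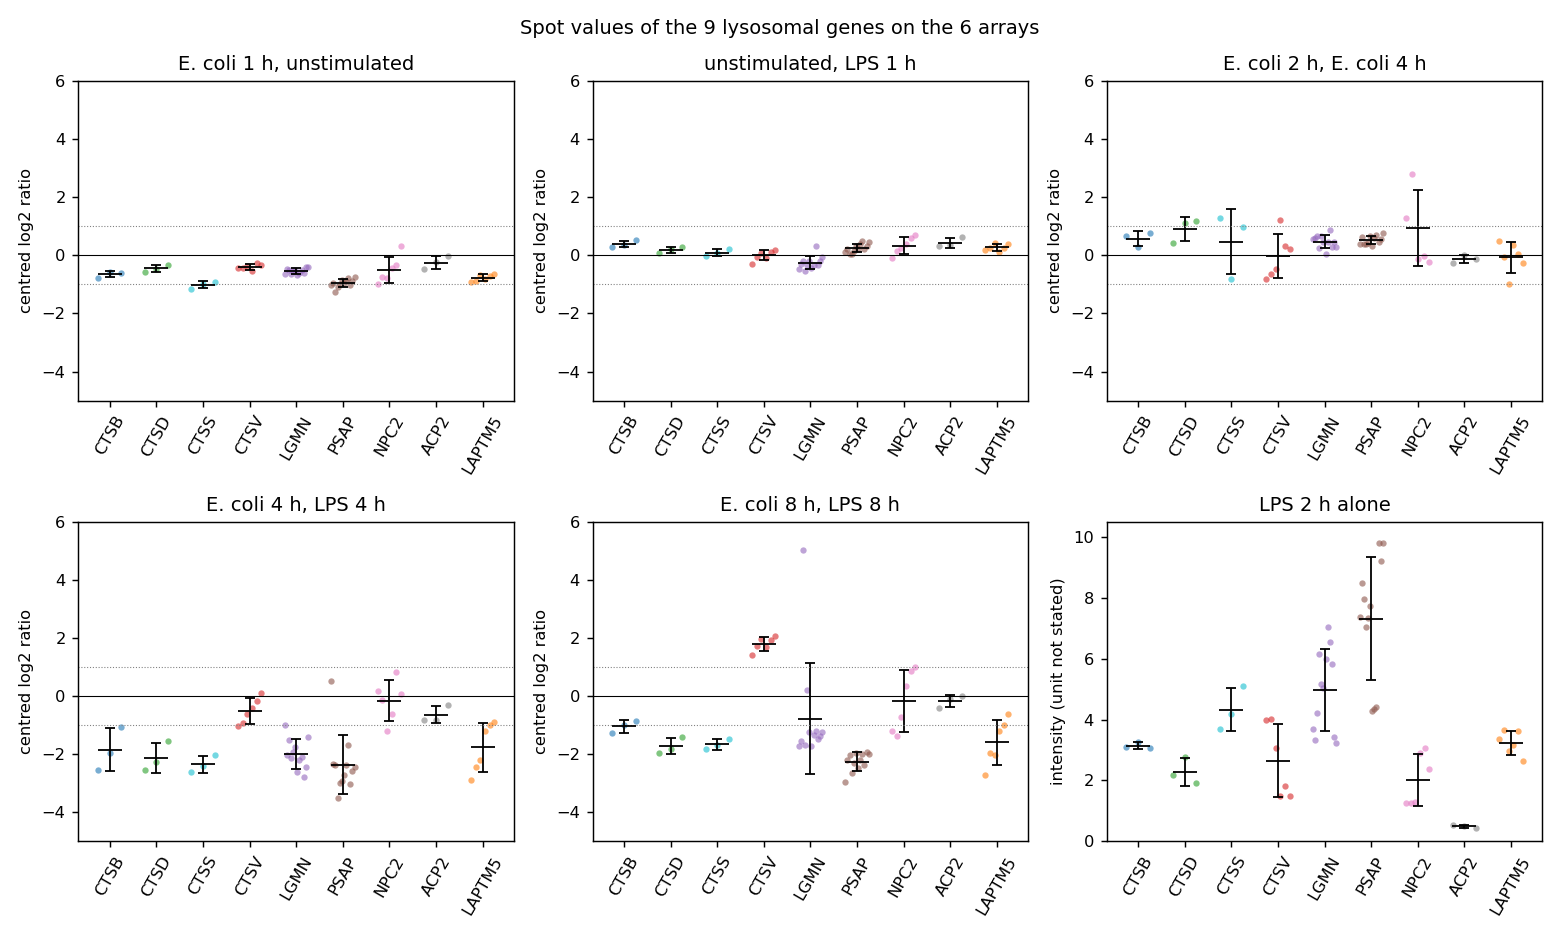
Centred log2 ratio of each spot (coloured points) for the 9 genes on the 5 ratio arrays, and intensity on the LPS 2 h array, with the mean over clones (black bar) and the SD over spots. Dotted lines mark 2-fold. On the 8 h array CTSV sits at 1.80, apart from the other 8 genes, whose values run from -2.25 to -0.17, and 1 spot of LGMN lies at 5.03.

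Of the cysteine cathepsins, CTSS, which in mammals trims the invariant chain of MHC class II and stays active at neutral pH, had the lowest ratio of the 9 genes at 1 h of E. coli. Its 3 spots read -1.14, -0.98 and -0.92 on that array, giving -1.01 ± 0.12, a 2.02-fold difference that was lower than all but 1.42% of genes. This call was at the threshold and fell within it without centring (-0.94), with the median of the spots (-0.98) and after removal of the trend (-0.81). On the 1 h LPS array CTSS was near 0, at 0.09 ± 0.11. On the E. coli time array its spots disagreed, with -0.82, 0.96 and 1.28 for a mean of 0.48 ± 1.13. On the 4 h array they read -2.61, -2.42 and -2.02, or -2.35 ± 0.30, a 5.09-fold difference between E. coli and LPS. At 8 h they read -1.83, -1.69 and -1.47, or -1.66 ± 0.18. After removal of the trend these were -1.64 and -1.25, so CTSS was past 2-fold between the stimuli at both times by either treatment of the data.

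CTSB, a cysteine protease that trims dipeptides from the end of its substrates besides cutting within them, ran nearest to the middle of the group. It had -0.65 ± 0.11 on the 1 h E. coli array and 0.40 ± 0.11 on the 1 h LPS array, with all 3 spots of 1 sign on each. Its ratio was 0.57 ± 0.26 on the E. coli time array. At 4 h its spots read -2.53, -1.95 and -1.05, or -1.84 ± 0.75, and on the 8 h array -1.29, -1.00 and -0.85, or -1.04 ± 0.22. The spots of each array lay on 1 side of 0 in all 5 comparisons. The 8 h value was just past 2-fold, and was -0.92 without centring, -0.85 with the arrays scaled to 1 spread and -0.67 after removal of the trend, so that call depends on the treatment of the data.

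CTSV is the cathepsin L type protease of the annotation, listed in the RefSeq gene table with the synonyms CTSL, CTSL1 and CTSL2. With centred values it was the only one of the 9 genes past 2-fold in the positive direction on any array. On the 8 h array its 6 spots, from 2 clones, ran from 1.41 to 2.07 with a median of 1.83, giving 1.80 ± 0.24, a 3.47-fold difference between E. coli and LPS. The clones had 1.70 ± 0.27 and 1.89 ± 0.19, so both lay past 2-fold with every spot positive. The other 8 genes had a median of -1.32 on that array, 3.11 below CTSV on the log2 scale. After removal of the trend CTSV stood at 2.11, at percentile 97.4 of all genes. Whatever the numerator, CTSV and PSAP, CTSS, CTSD and LAPTM5 thus lay on opposite sides of the array's median between E. coli 8 h and LPS 8 h.

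On the other arrays CTSV stayed within 2-fold. It had -0.39 ± 0.10 on the 1 h E. coli array, with all 6 spots negative, and -0.0012 ± 0.17 on the 1 h LPS array. On the 4 h array it had -0.51 ± 0.44, from clones at -0.86 ± 0.22 and -0.16 ± 0.26, and 0.06 after removal of the trend. Between 2 h and 4 h of E. coli the clones lay on opposite sides of 0, at -0.64 ± 0.16 and 0.59 ± 0.56, and their mean of -0.02 describes neither. The step from the 4 h to the 8 h array was 2.31 for CTSV, followed by 1.22 for LGMN, whose 8 h mean holds the spot at 5.03, and 0.80 for CTSB.

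CTSD, the aspartic protease of the lysosome, had one of the lowest ratios of the 9 genes at 4 h. Its spots read -2.55, -2.28 and -1.56 on the 4 h array, or -2.13 ± 0.51, a 4.38-fold difference, and -1.95, -1.82 and -1.43 on the 8 h array, or -1.73 ± 0.28. All spots were past 2-fold on both arrays. On the E. coli time array they were positive, at 0.43, 1.11 and 1.17, for a mean of 0.90 ± 0.41 that lay just within 2-fold and just past it after removal of the trend (1.27), without centring (1.40) or with the median of the spots (1.11). At 1 h its ratios were small, -0.45 ± 0.13 on the 1 h E. coli array and 0.19 ± 0.10 on the 1 h LPS array.

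LGMN was read through 4 clones and 12 spots. For 1 h of E. coli every spot was negative, from -0.66 to -0.40, with a mean of -0.54 ± 0.09. It was the gene of the 9 with the lowest ratio on the 1 h LPS array, -0.25 ± 0.22, with 11 of 12 spots negative, and was 0.04 there without centring. Between 2 h and 4 h of E. coli all 12 spots were positive, from 0.06 to 0.88, with a mean of 0.47 ± 0.22. At 4 h they ran from -2.79 to -1.00 with a median of -2.06, giving -1.99 ± 0.51. The clones agreed there in sign and size, with means from -2.30 to -1.51.

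The 8 h value of LGMN rested on 1 spot. The 12 spots had a mean of -0.77 ± 1.90 over clones and a median of -1.35, with 10 of them between -1.71 and -1.20, 1 at 0.20 and 1 at 5.03. Clone 1, which holds the highest spot, had 0.59 ± 3.85, while clones 3 and 4 had -1.41 ± 0.26 and -1.36 ± 0.12. With the median over spots LGMN was past 2-fold on the negative side, like CTSD and CTSS.

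PSAP, the precursor of the saposins, had the lowest ratio of the 9 genes at 8 h and lay beside CTSS at 4 h. With E. coli for 1 h its 12 spots ran from -1.27 to -0.76 with a median of -0.95, and its 4 clones had -1.08, -0.98, -0.88 and -0.88. The mean of -0.95 ± 0.14 was just within 2-fold and lower than all but 1.82% of genes. On the 1 h LPS array all 12 spots were positive, with a mean of 0.25 ± 0.15, and on the E. coli time array they were positive too, with 0.53 ± 0.15.

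On the 4 h array PSAP had -2.36 ± 1.01, a 5.15-fold difference, with 11 of 12 spots from -3.49 to -1.69 and 1 spot of clone 1 at 0.50. At 8 h its spots ran from -2.95 to -1.94 with a median of -2.20, giving -2.25 ± 0.32, a 4.77-fold difference. All 12 were past 2-fold, and the 4 clone means lay between -2.39 and -2.10. After removal of the trend PSAP remained the lowest of the 9 at 8 h, at -1.80, while CTSS was the lowest at 4 h, with -1.64 against -1.61 for PSAP.

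NPC2, the cholesterol carrier, had no settled ratio, since its 2 clones went different ways. On the 8 h array clone 1 had -1.10 ± 0.34 and clone 2 had 0.75 ± 0.35, with no overlap of their spots, and the gene's mean of -0.18 ± 1.06 lies between them. On the E. coli time array clone 1 had 2.03 ± 1.07 on 2 spots and clone 2 had -0.13 ± 0.10, so the mean of 0.95 ± 1.30 became -0.13 when only clones with 3 readings were used. For 1 h of E. coli clone 1 had -0.84 ± 0.12 and clone 2 had -0.16 ± 0.41. On the 1 h LPS array the gene had 0.33 ± 0.29, and at 4 h -0.15 ± 0.70, with clones at -0.40 ± 0.73 and 0.09 ± 0.73. Whether both clones carry the same transcript was not tested.

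ACP2, the lysosomal acid phosphatase, was the 1 gene of the 9 outside the brightest 25%, and its ratios ran from -0.65 to 0.43. Its lowest value was -0.65 ± 0.29 on the 4 h array, with spots at -0.82, -0.81 and -0.31, and its highest 0.43 ± 0.16 on the 1 h LPS array, with all 3 spots positive. At 8 h it had -0.17 ± 0.22 and on the 1 h E. coli array -0.25 ± 0.23. Removal of the trend left it at -0.61 at 4 h and -0.11 at 8 h.

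LAPTM5, a lysosomal membrane protein of blood cells that in mice lowers antigen receptors on lymphocytes, was past 2-fold negative at 4 h and 8 h, as CTSB, CTSD and CTSS were. Its 6 spots were all negative on the 4 h array, from -2.88 to -0.88, with a mean of -1.76 ± 0.85, and on the 8 h array, from -2.72 to -0.63, with -1.59 ± 0.78. The clones differed in size but not in sign. Clone 1 had -2.51 ± 0.34 and -2.23 ± 0.42 at 4 h and 8 h, and clone 2 had -1.02 ± 0.16 and -0.94 ± 0.29. On the arrays of 1 h the clones were close, with -0.82 and -0.72 for E. coli and 0.29 and 0.26 for LPS. Between 2 h and 4 h of E. coli LAPTM5 had -0.07 ± 0.52 with 3 spots of each sign.

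**Figure D2:**
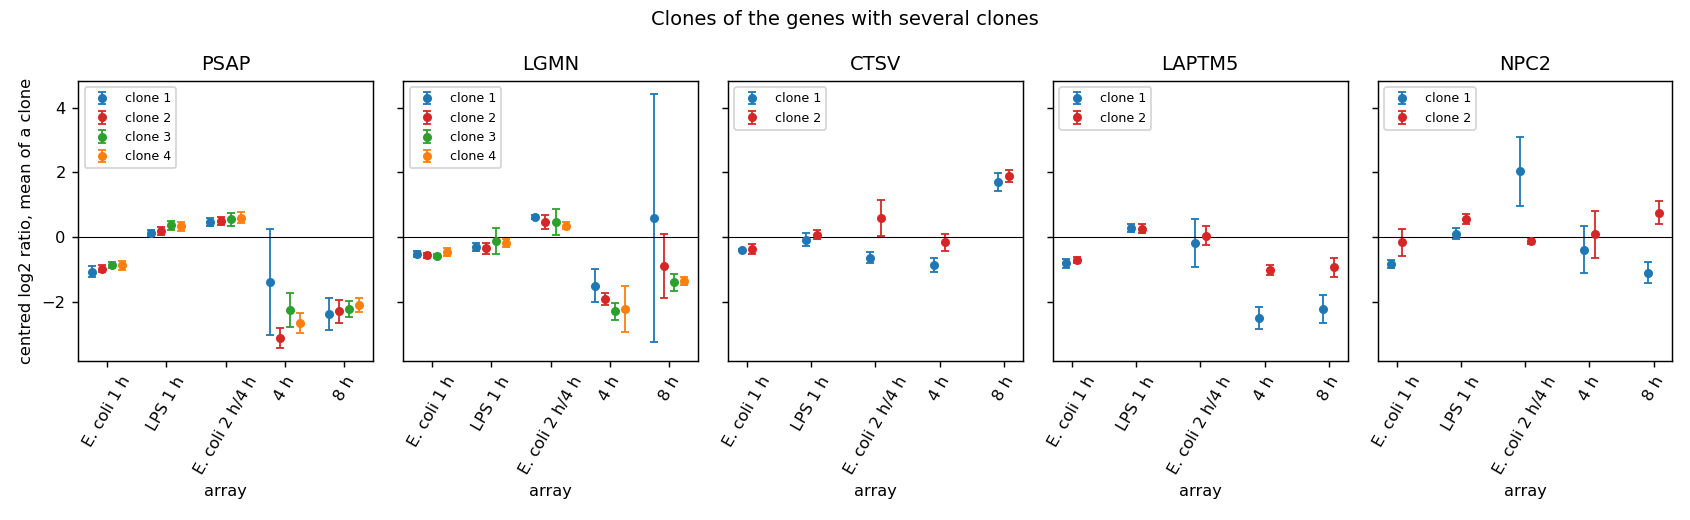
Mean centred log2 ratio of each clone (points) on each ratio array for the 5 genes with several clones, with the SD over the spots of the clone. The 4 clones of PSAP lie between -2.39 and -2.10 at 8 h and both clones of CTSV are above 1 there, whereas the clones of NPC2 lie at -1.10 and 0.75.

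Between the later arrays, 5 of the 9 genes (CTSB, CTSD, CTSS, PSAP and LAPTM5) were past 2-fold negative at both 4 h and 8 h, as were 4.56% of the 2216 genes read on both. All 5 belong to the brightest 25% of genes, whose share on both arrays was not computed. On single arrays 23.6% of the brightest were past 2-fold negative at 4 h and 17.1% at 8 h. These arrays hold separate RNA samples, but the genes were chosen with earlier results of these data known, so the 2 arrays are not independent support. The count drops to 4, without CTSB, after removal of the trend, for which the share of all genes was not computed. Relative to 4 h, the negative ratios were smaller at 8 h for CTSB by 0.80, for CTSS by 0.68, for CTSD by 0.40, for LAPTM5 by 0.18 and for PSAP by 0.11, and with 1 array each these differences were not tested.

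**Figure D3:**
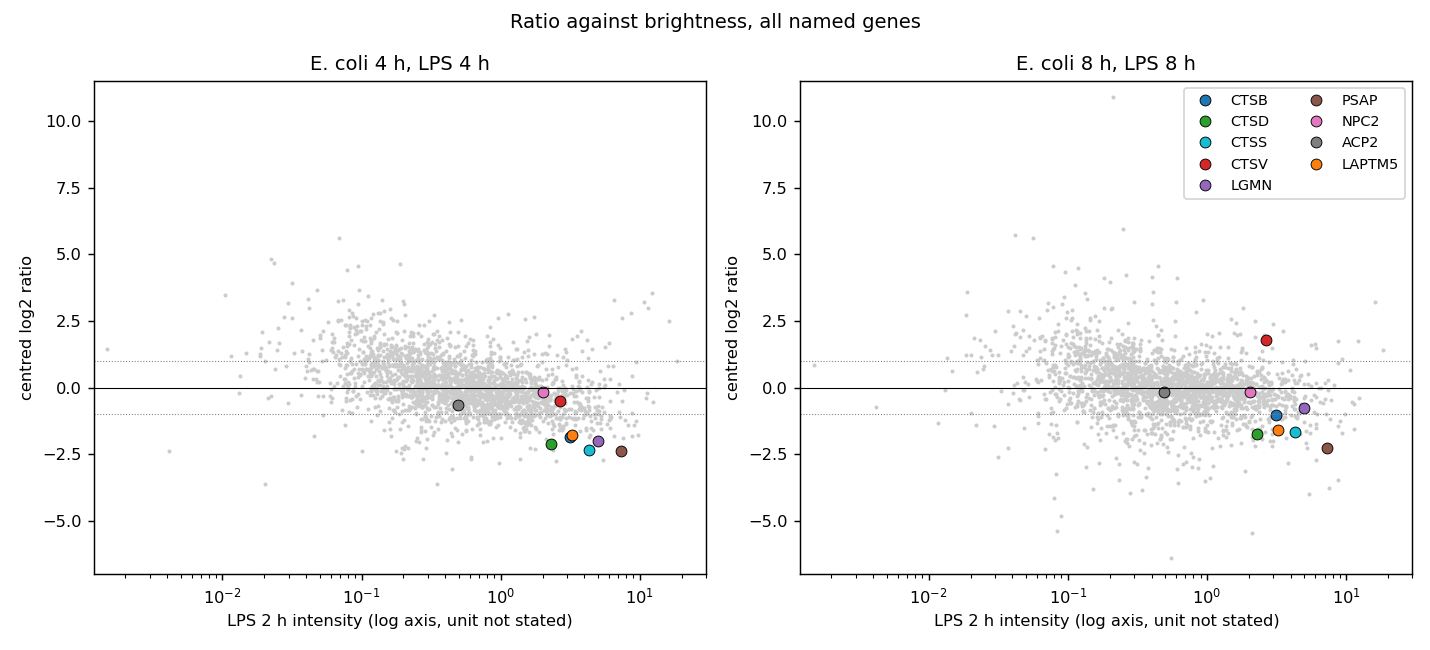
Centred log2 ratio against LPS 2 h intensity (log axis) for named genes with an intensity above 0 (grey), with the 9 genes in colour, on the 4 h and 8 h arrays. The cloud slopes down to the right, and CTSB, CTSD, CTSS, LGMN, PSAP and LAPTM5 lie along its lower edge at 4 h, between -2.36 and -1.76.

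After LPS 2 h alone, all 54 spots of the 9 genes were above 0, and the genes' median intensity was 3.15, in a unit the authors did not state. PSAP had 7.32 ± 2.01, from clones between 4.36 and 9.61, LGMN 4.97 ± 1.36 and CTSS 4.32 ± 0.72. LAPTM5 had 3.24 ± 0.39, CTSB 3.15 ± 0.11, CTSV 2.65 ± 1.20, CTSD 2.28 ± 0.45 and NPC2 2.03 ± 0.86, and ACP2 had 0.49 ± 0.04. Brightness depends on the clone, as the clones of PSAP show, so levels of different genes are not compared.

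The other genes of the pathway were read in part. Of 96 further genes of lysosomal peptidases, glycosidases, lipid enzymes and membrane proteins, 35 were read. At 4 h 13 of these were past 2-fold negative and 3 positive, with a median of -0.66, which was 5 and 1 with a median of -0.22 after removal of the trend. On the 8 h array 8 of 34 were negative and 1 positive (4 and 3 after removal), with a median of -0.43. With E. coli for 1 h none was past 2-fold negative and 2 were positive, on the 1 h LPS array 1 and 2, and on the E. coli time array 2 and 5. Of all genes, 11.7% were negative and 17.7% positive at 4 h, and 12.9% and 15.0% at 8 h. In either direction it was 16.3% for 1 h of E. coli, 11.2% on the 1 h LPS array and 23.1% on the E. coli time array. After removal it was 21.6% at 4 h and 25.4% at 8 h. Before removal, counts for 1 h of E. coli, on the 1 h LPS array and on the E. coli time array were below these shares. Counts after removal at 4 h and 8 h were below them too. After removal 7 of the 35 were positive and 2 negative on the E. coli time array, above the 20.0% of all genes. The same shares apply to the lists below. The 9 genes had lower medians than these other lysosomal genes at 4 h and 8 h, with or without the trend, a difference that was not tested. Both the 9 genes and the lists were chosen with earlier results of these data known, so the contrast is a description only.

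Among 10 other cathepsins and lysosomal peptidases, 5 were past 2-fold negative at 4 h, with a median of -0.97, and 3 at 8 h, with a median of -0.81. With the trend removed, 3 were negative at 4 h (median -0.69), and at 8 h 1 was negative and 1 positive (median -0.65). CTSZ, a carboxypeptidase of the cathepsin family, had -1.85 ± 0.19 at 4 h, CTSG, a serine protease of granulocytes, -1.39 ± 0.64, and TPP1, which removes tripeptides, -1.13 ± 0.98, and these stayed past 2-fold after removal, at -1.14, -1.10 and -1.03. CTSA, the protective protein of galactosidase, had -1.02 ± 0.60 at 4 h and -0.55 after removal. CTSC, which activates granule serine proteases, had -1.43 ± 0.74 at 4 h, with spots of both signs, and -1.28 ± 0.40 at 8 h, which became -0.82 and -0.95. The serine carboxypeptidase SCPEP1 had -1.45 ± 1.46 at 8 h with spots of both signs, and -1.38 after removal. CTSK, a collagen-cutting cathepsin, lay on the side of CTSV at 8 h, with 0.92 ± 0.17 and all 3 spots positive, and 1.14 after removal. It is named after its values were seen. All 10 were positive on the E. coli time array, led by the prolyl carboxypeptidase PRCP at 1.62 ± 1.55. On the 1 h E. coli array 8 of 10 were negative within 2-fold, led by CTSH, an aminopeptidase, at -0.80 ± 0.24.

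The 9 lipid enzymes and phosphatases were mixed. At 4 h 2 were past 2-fold negative and 2 positive, and none was after removal of the trend, when the median went from -0.35 to 0.11. At 8 h 3 were negative and 1 positive, and 2 and 1 after removal. IFI30, a thiol reductase that unfolds antigens, had -1.40 ± 0.24 at 4 h and -1.18 ± 0.27 at 8 h, and -0.72 and -0.79 after removal. PPT1, which removes palmitate from proteins, had 2.07 ± 0.46 on the E. coli time array and -1.66 ± 0.80 at 8 h, and 2.26 and -1.48 after removal. The phospholipase PLA2G15, a dim gene, was positive on all 5 arrays, with 1.87 ± 0.14 at 4 h (0.99 after removal) and 1.86 ± 0.06 on 2 spots at 8 h (1.25 after removal). CREG1, a secreted glycoprotein of lysosomes, had -1.29 ± 0.45 on the E. coli time array, and -0.94 after removal.

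Of 9 glycosidases and sulfatases 2 were negative past 2-fold at 4 h, the glucuronidase GUSB at -1.20 ± 0.69 (-0.95 after removal) and the chitobiase CTBS at -1.03 on 1 spot. The sulfatase ARSB had -2.78 ± 1.45 at 8 h, and -2.95 after removal. CTBS, dim on the LPS 2 h array, had 1.49 ± 0.25 on the 1 h E. coli array, which became 0.79, and 1.91 ± 0.70 on the E. coli time array, which became 1.29. The galactosylceramidase GALC had 1.37 ± 0.93 on the latter, and 0.83 after removal.

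Among 7 membrane proteins and carriers, 4 were past 2-fold negative at 4 h and 1 positive, with a median of -1.01. With the trend removed 1 was negative and 1 positive, with a median of -0.29. Among the 4, the sialomucin CD164 had -1.79 ± 0.76 and the endosomal protein LITAF -1.05 ± 0.43. The others were the LAPTM5 relative LAPTM4A at -1.01 ± 0.21 and the lysosomal coat protein LAMP1 at -1.06 ± 0.80. The spots of CD164 and of LAMP1 had both signs. LAMP1 is named outside the naming rule, after its values were seen. After removal CD164 stood at -1.09, and LITAF, LAPTM4A and LAMP1 were within 2-fold, at -0.67, -0.29 and -0.32. CD164 had -1.12 ± 0.29 at 8 h, and -0.72 after removal. CLN8, a membrane protein that ferries lysosomal enzymes out of the endoplasmic reticulum, ran against them with ratios of 2.33 ± 1.29 on the 1 h E. coli array, -3.73 ± 1.34 on the 1 h LPS array, -1.71 ± 0.63 on the E. coli time array and 2.62 ± 0.88 at 4 h. Those are the signs of IL1B on the same arrays, which had -0.83 ± 0.27 and 3.19 ± 1.34 on the last 2. SLC15A4, a histidine and peptide carrier, had 1.54 ± 0.03 on the 1 h LPS array.

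Of 11 sorting genes 3 were past 2-fold negative at 4 h, the adaptor subunit AP3S1 at -1.42 ± 0.32, the clathrin heavy chain CLTC at -1.38 ± 0.30 and M6PR, the receptor that delivers hydrolases to lysosomes, at -1.35 ± 0.98, and 1 was positive. After removal of the trend AP3S1 was at -0.96, CLTC at -1.12 and M6PR at -1.16. The clathrin light chain CLTA had -1.29 ± 0.13 on the 1 h E. coli array. GNPTG, a subunit of the enzyme that tags hydrolases for sorting, had -1.06 ± 0.07 on the E. coli time array, and -0.996 after removal. The 12 proton pump subunits stood nearer to 0, with medians of -0.03 at 4 h and 0.25 at 8 h. ATP6V0D2, a subunit found in macrophages and osteoclasts, had 1.16 ± 0.48 and, on 2 spots, 1.61 ± 0.03 there, and ATP6V1C2 had -2.46 ± 1.28 at 8 h. None of the 4 inhibitors of cathepsins read was past 2-fold at 1 h, 4 h or 8 h, and CST3, or cystatin C, had 1.19 ± 0.28 on the E. coli time array. Of 7 regulators, 2 were past 2-fold positive at 4 h and none after removal of the trend. They were the kinase MTOR at 1.23 ± 0.69 (0.61 after removal) and LAMTOR5, a subunit of the complex that anchors it to lysosomes, at 1.07 ± 0.98 (0.91), with spots of both signs. LAMTOR3, of the same complex, had -1.18 ± 1.36 at 8 h (-1.54), also with both signs. TFEB, the factor that drives lysosomal genes in mammals, stayed within 2-fold on the 5 arrays.

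**Figure D4:**
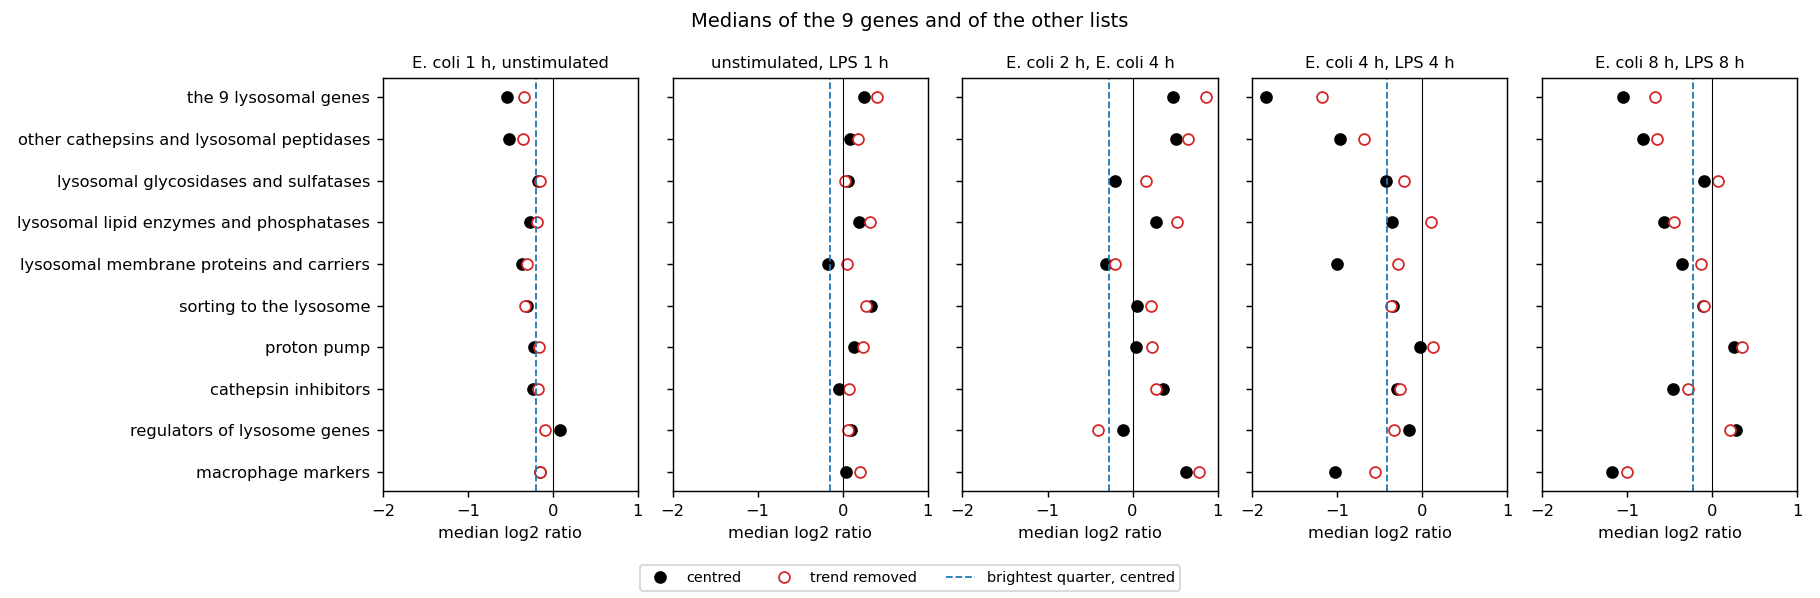
Median centred log2 ratio of the 9 genes and of 9 other lists on each ratio array (black), the same after removal of the brightness trend (open red), and the median of the brightest 25% of genes (dashed line). The 9 genes have the lowest median on the 4 h array, at -1.84, and their trend-removed median there is -1.19. On the 8 h array the macrophage markers lie lower than the 9 genes, at -1.18 against -1.04, and at -1.00 against -0.67 with the trend removed.

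Of 14 macrophage markers 9 were read, none at or below 0 on the LPS 2 h array, with intensities from 0.40 to 2.75. On the 4 h array 7 of the 9 were negative and 6 past 2-fold, with a median of -1.02. With the trend removed the median was -0.55 and 1 was past 2-fold, TREM2, at -1.24. Before removal TREM2 had -1.23 ± 2.42 over 6 spots of both signs. The complement subunit C1QB had -1.36 ± 0.40, LY86, a secreted protein that binds a receptor of the Toll-like family, -1.16 ± 0.80 and C1QC -1.02 ± 0.53 at 4 h, and -0.76, -0.55 and -0.52 after removal. The scavenger receptor MARCO and the Fc receptor chain FCER1G lay on the positive side at 4 h, at 0.32 ± 0.42 and 0.18 ± 0.40. On the 8 h array 8 of 9 were negative and 6 past 2-fold, with a median of -1.18, and after removal 5 were, with a median of -1.00. C1QC had -1.97 ± 0.97, the lipid receptor TREM2 -1.93 ± 0.86, LY86 -1.93 ± 0.70 and the transcription factor SPI1 -1.05 ± 0.46 there, and SPI1 was at -0.81 after removal.

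On the E. coli time array the macrophage markers had a median of 0.63, with C1QC at 1.41 ± 1.22, FCER1G at 1.03 ± 0.37 and MARCO at -1.01 ± 0.18, the last 2 at 0.95 and -0.82 after removal. At 1 h the medians were -0.15 for E. coli and 0.04 for LPS. With LPS for 1 h 5 of the 9 markers were positive and 4 negative. TREM2 had 1.31 ± 0.13 there and the growth factor receptor CSF1R 1.17 ± 0.43. SPI1, named after its values were seen, had -0.67 ± 0.22 with all 9 spots negative. In RNA from a whole culture, fewer cells of a type and less RNA per cell cannot be told apart.

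Markers of other blood cells were few on the array. Of 15 T cell markers 2 were read, and CD3D, a chain of the T cell receptor complex, had an intensity of 5.40 ± 0.40 on the LPS 2 h array and ratios of -2.70 ± 0.75 on 2 spots at 4 h and -4.01 ± 0.76 at 8 h, while CD28 had 2.10 ± 2.49 and -0.49 ± 1.54. After removal of the trend CD3D was at -1.97 and -3.57. Of 12 heterophil markers 4 were read, with a median of -1.14 at 4 h and -0.0034 at 8 h. The calcium-binding protein S100A12 had -1.34 ± 0.33 at 4 h (-0.69 after removal) and, on 2 spots, -2.18 ± 0.11 at 8 h, and -1.35 ± 0.14 on the E. coli time array (-0.98). At 8 h the biotin-binding protein AVD had 0.90 ± 0.29 (1.31 after removal) and CTSG 0.51 ± 0.38, each with all spots positive, and AVD had -1.15 ± 0.10 on the 1 h LPS array (-0.93). Of the lists of B cell, thrombocyte, erythroid and stromal markers, 1, 2, 2 and 1 genes were read. Among them the haemoglobin gene HBBA had 1.79 ± 1.15 at 4 h and the matrix protein FN1 -1.11 ± 0.58 at 8 h (-0.76 after removal). The part of other cells in the ratios of the 9 genes was not tested.

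The profile of each gene over the 5 arrays was set against that of every gene with at least 3 spots on each, by the root mean square difference of the log2 ratios. This is a description, since arrays share conditions and may share RNA samples. Among the 9, the closest pair was CTSS and PSAP at 0.27, followed by CTSB and LGMN at 0.33, CTSD and CTSS at 0.33 and CTSD and PSAP at 0.38. The farthest pair was CTSV and PSAP at 2.03. Of 1584 other genes, the nearest to the median profile of the 9 were CD164 at 0.17, FAP, a serine protease of the cell surface, at 0.19, CTSC at 0.24, RAC1, a GTPase of the actin skeleton, at 0.24 and CTSZ at 0.25. CD164, FAP and CTSC were also the nearest to CTSB. Since the values of CTSB are themselves the median of the 9 at 4 h and 8 h, this is not a separate observation. TUBB6, a tubulin, PRDX1, a peroxide-removing enzyme, and PSAP were nearest to CTSS. Nearest to CTSV, a gene chosen for this after its values were seen, were the filament protein VIM at 0.27, the annexin ANXA2 at 0.29 and the ribosomal protein RPL13 at 0.29, with 8 h ratios of 1.97, 1.37 and 1.51.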

How the data were processed

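The deposited table held 14718 spots and 1 column for each of the 6 arrays. The authors' deposited ratios for the 5 arrays with 2 channels were read on the log2 scale, an assumed base. For LPS 2 h the deposited values were taken as intensity on a linear scale, 204 of them below 0. The sources used here do not state normalization, background correction, filters, numerator or dyes. Genes came from a platform annotation of 2007, which gave 9066 spots 1 gene and 3 spots several, and left 5649 unnamed. Symbols were updated by gene identifier through RefSeq of GRCg7b (2228 of 2255 matched), for names only. Ratios were centred on the array median, a clone is the mean of its spots and a gene the mean of its clones. The trend with brightness was a lowess (fraction 0.3) on the rank of LPS 2 h intensity. All 9 members were named, with genes of further lists that were past 2-fold with spots of 1 sign, examples of the 2 largest ratios of a list, and the 3 or 5 nearest profiles. Members, lists and rules were chosen with earlier results of these data known. The averaging was tested on simulated data. Alternatives were no centring, no trend, the median over spots, scaled arrays, no dim spots, full clones only and copies centred apart. Software was statsmodels 0.14.6, pandas 2.3.3, numpy 2.4.6 and Python 3.11.15.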

Additional observations from a re-analysis of the deposited data

How the results depend on the processing

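Each group held 1 array, so spread between cultures is unknown and no array could be left out. No paired analysis was possible because each group held 1 array. Signal over background could not be judged, since no background or detection values were used here. On the 1 h E. coli array the count of the 9 genes past 2-fold (1) was 0 without centring (17.3% of all genes), after removal of the brightness trend (13.5%) or with the median over spots (15.1%), and 2 with the arrays scaled to 1 spread (21.4%), and the median of the 9 was -0.34 after removal. On the 1 h LPS array the median (0.25) was 0.54 without centring, 0.40 after removal and 0.45 with scaling. On the E. coli time array the count (0) was 4 without centring (31.8% of all genes), 2 after removal (20.0%) and 1 with the median over spots (21.6%), and the median was 0.97 without centring. The median was -1.19 at 4 h and -0.67 at 8 h after removal, and -1.35 at 8 h with the median over spots. ATP6V0D2 on the E. coli time array, 1.17 with spots of both signs, was -0.19 with the median over spots. Leaving out dim spots, or centring each printed copy on its own median (chosen after seeing the data), changed no call among the 45 ratios of the 9 genes and moved none by more than its SD over spots. Neither setting could change much. The dim spots were the lowest 25%, while the dimmest spot of the 9 genes had 0.45, beside a median of 0.48 over all spots. Centring by copy shifts all clones read in every copy nearly alike. These outcomes are therefore no sign of robustness. Using only clones with 3 spots changed no call and 1 sign, that of NPC2 on the E. coli time array. That was the only array where a spot of the 9 genes lacked a value, so no other value could change.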
